A study of Mus musculus with 16 samples.

Results

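The cytoplasmic ribosomal protein genes carried on the autosomes were followed in nascent RNA from mouse embryonic stem cells. They were the symbols on chromosomes 1 to 19 made of Rpl, Rps or Rplp, a number and at most one letter, and 77 of the 24978 symbols in the table met that form: 47 of the large subunit (Rpl and Rplp) and 30 of the small subunit (Rps). Each gene was represented by its widest line. Levels are in CPM, reads per 1000000 reads counted over all lines for that copy and library. Over the 16 libraries 73 of the 77 reached a mean of 0.2 CPM and were tested beside 14094 genes in all. The 4 genes below that level were Rpl30, Rpl31 and Rps4l, each with 0 reads in all 16 libraries, and Rpl3l, with 30 reads in all. Only reads assigned to a parental copy were counted, so 0 reads do not show that a gene was silent.

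The cells were F121-9, a hybrid line whose parents were the mouse strains castaneus (cast) and 129, so that each gene has a cast and a 129 copy that sequence differences can tell apart. They were labelled with bromouridine at 2 mM for 30 minutes, which marks RNA made in that time (Bru-seq), and the study is about elements in cis that act on DNA replication. Unedited F121-9 cells gave 2 libraries. Edited derivatives were named for the sites they lack: abc.del, ab.del and c.del gave 2 libraries each, and b.del, bc.del, ac.del and a.del gave 1 each. The remaining 4 single libraries were 680kinv, 100kdel, 245kdel and 4k.b.c, whose names read as an inversion, a pair of larger deletions and a further combined edit. The labels name neither the position of an edit nor the copy that carries it. Each edited library has its own name ending (such as A6 or E2), so an edited library may be 1 clone; nothing says that libraries of one group came from separate cultures, and p-values measure only the spread between these libraries. All groups were grown on gelatin in 2i plus LIF and share the hybrid background.

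Ribosomal proteins are made in near equal amounts and assembled in the nucleolus with ribosomal RNA into the small subunit, which reads messenger RNA, and the large subunit, which joins amino acids. Their genes are short, have many small introns that often hold small nucleolar RNAs (snoRNAs), and lack a strong TATA box, and many of their transcripts begin with a run of pyrimidines, the 5' terminal oligopyrimidine tract through which growth signals set their translation. Processed pseudogenes of these genes are common in mammalian genomes, so the assignment of reads to a member can be uncertain where such a copy exists.

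The start regions of 8 members are shown because these genes stand at both ends of the comparison that called the most members, that between libraries of different sample numbers. RefSeq start windows (GRCm38.p6, the build called mm10) matched 56 of the 77 members by symbol. In 55 of these 56 the RefSeq start lay within 10 bases of the start of the line in the table. The exception was Rps18, at 24 bases, which is among the 8 shown, and positions are counted from the RefSeq start. The first 5 sequences belong to the members with a window that were most increased in the later-numbered libraries, and the last 3 to those with the lowest differences. Each runs 5' to 3' from 60 bases before the start to 15 bases from it, and capitals mark a run of at least 5 pyrimidines that contains the start base. Rps28 is at chr17:33824548-33824622 on the minus strand, Rps6 at chr4:86857353-86857427 on the minus strand, Rps18 at chr17:33955651-33955725 on the minus strand, Rps19 at chr7:24884532-24884606 on the plus strand and Rpl13 at chr8:123102290-123102364 on the plus strand. Rpl32l is at chr10:20208379-20208453 on the plus strand, Rpl10l at chr12:66284387-66284461 on the minus strand and Rplp2 at chr7:141447591-141447665 on the plus strand.
Rps28: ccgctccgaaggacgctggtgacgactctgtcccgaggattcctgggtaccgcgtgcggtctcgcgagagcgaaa
Rps6: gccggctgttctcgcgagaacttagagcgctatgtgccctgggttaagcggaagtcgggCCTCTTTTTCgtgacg
Rps18: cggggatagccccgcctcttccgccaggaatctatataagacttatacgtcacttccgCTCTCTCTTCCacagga
Rps19: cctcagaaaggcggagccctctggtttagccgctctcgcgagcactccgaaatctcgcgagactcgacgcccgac
Rpl13: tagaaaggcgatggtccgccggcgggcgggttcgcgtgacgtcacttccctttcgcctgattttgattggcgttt
Rpl32l: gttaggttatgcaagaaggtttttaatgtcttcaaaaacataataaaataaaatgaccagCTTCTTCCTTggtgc
Rpl10l: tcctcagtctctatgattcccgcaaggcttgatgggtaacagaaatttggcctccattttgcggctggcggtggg
Rplp2: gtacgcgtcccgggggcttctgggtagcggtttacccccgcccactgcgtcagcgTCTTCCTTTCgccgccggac

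The pyrimidine run at the start was 10 bases long in Rps6 and 11 in Rps18, and it was 10 in both Rpl32l and Rplp2. A start base inside such a run was found in 18 of the 56 member windows, or 32.1%, against 10.1% of the 32851 windows of all genes. The letters CGGAAG, the core recognised by ETS family factors, occurred on either strand in 37 of the 56 member windows (66.1%, all 300 bases searched) and in 16.9% of all windows; in Rps18 the nearest copy began 8 bases before the start, and in Rps6 12 bases before it. The letters CTCGCGAGA occurred on either strand in 6 member windows (10.7%) against 0.676% of all windows. GGGCGG, the core of the GC box, was in 31 (55.4% against 35.7%), and TATAAA, the TATA box, in 5 (8.93% against 13.6%). No overlap between these motifs was removed, and a match is a description of letters only.

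Reads assigned to a copy were abundant for the length of the members. Assignment rests on sequence differences between the strains, so levels of different genes may also depend on how many they hold. That number was not counted. Per kilobase of span, the median level over the 73 tested members was 7.76 CPM, against 0.400 CPM for all genes tested. Spans ran from 592 to 11772 bases with a median of 3068, against 25924 for all genes tested. Exons made up a median of 60.5% of a member's span, against 16.1% for all genes and 44.4% for the 3543 other autosomal genes no wider than the widest member (called short genes below). The 5 highest per kilobase were Rps12 (33.6 CPM per kb), Rpl4 (24.1), Rps24 (22.6), Rpl13a (18.3) and Rpl9 (18.1). Of these, Rps12, Rpl4 and Rpl13a have snoRNA genes inside their span on the same strand, and such reads cannot be told from reads of the host gene. Among the lowest were Rpl39l (0.436 CPM per kb), Rpl10l (0.901), Rpl18 (1.23) and Rps29 (1.46). In all, 25 of the 77 members overlap another symbol on the same strand and 8 overlap one on the opposite strand; the libraries were strand-specific.

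The paralogues are related copies, several of them used mainly in particular tissues. Rpl3l, the muscle form of Rpl3, was at or below 0.237 CPM in every library. Rpl10l and Rpl39l, known as testis forms, lay at 0.182 to 2.28 CPM and 0.318 to 7.71 CPM. Rps27l, a p53 target close to Rps27, lay at 4.71 to 10.7 CPM, and Rps4l had no reads; for a gene without reads the limit that 3 reads would set lay between 0.0833 and 0.296 CPM on the 129 copy and between 0.0905 and 0.329 CPM on the cast copy, for counting error only.

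Facts of the whole data set that bear on these genes are the following. Total reads assigned to a copy, over the symbols used, lay between 8958147 and 32045609 per library, of which 39017 to 153665 fell on the members. Stem cell markers were abundant in all 16 libraries (the sum of Pou5f1, Sox2, Nanog, Klf4, Esrrb and Zfp42 was 1096 to 1514 CPM). Sums of other markers were low: 0.570 to 2.71 CPM for primitive endoderm (Gata6, Gata4, Sox17, Sox7), 0.330 to 2.96 for mesoderm (T, Mixl1, Eomes), 0.564 to 11.1 for the neural pair (Sox1, Pax6) and 0 to 1.76 for fibroblast feeders (Col1a1, Col1a2, Thy1, Twist1, Twist2), with Twist1 at 0 in all 16. The sample numbers of the libraries fall into 2 separate stretches, called here the first and the second run. The first run holds 8 libraries (680kinv, both F121-9, both abc.del, ab.del replicate 1, bc.del and c.del replicate 1), and the second holds the other 8. What sets the runs apart is not labelled.

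The summed level of the 77 genes differed 2.99-fold between the lowest and the highest library. In the unedited F121-9 cells it was 1374 and 1266 CPM. The abc.del pair reached 1957 and 1947 CPM. In ab.del replicate 1 and replicate 2 it was 1454 and 2889 CPM, and in c.del replicate 1 and replicate 2 it was 1519 and 3786 CPM. The F121-9 and abc.del pairs were close within the pair, while the ab.del and c.del pairs, each with 1 library in either run, were not. The single libraries of the first run gave 1500 CPM (680kinv) and 1686 CPM (bc.del). Those of the second run gave 2203 (100kdel), 2234 (245kdel), 3548 (4k.b.c), 2216 (ac.del), 3399 (a.del) and 2083 CPM (b.del). Every second-run library thus lay above every first-run library, with ranges of 2083 to 3786 and 1266 to 1957 CPM. Both copies followed this order (1363 to 2163 against 2118 to 4035 CPM on the 129 copy, and 1169 to 1771 against 2048 to 3610 CPM on the cast copy), although on the 129 copy the highest first-run and lowest second-run libraries overlapped. Large and small subunit sums moved alike, at 720 to 1146 against 1172 to 2160 CPM and at 546 to 841 against 911 to 1630 CPM. A CPM here is a share of the reads counted for that copy over all lines, several of which can belong to the same symbol. In bulk RNA, fewer cells of a type and less RNA per cell cannot be told apart.

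**Figure D1:**
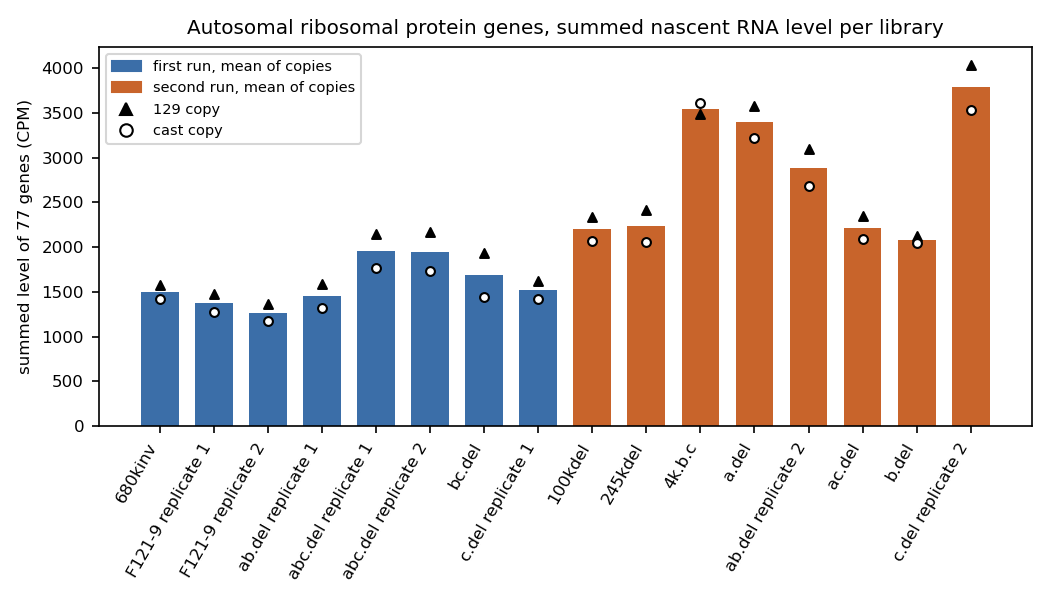
Summed level of the 77 autosomal ribosomal protein genes in CPM for each of the 16 libraries. Bars are the mean of both copies, triangles the 129 copy and open circles the cast copy; blue bars are first-run and orange bars second-run libraries. First-run bars lie between 1266 and 1957 CPM and second-run bars between 2083 and 3786 CPM.

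The members moved together. For each gene the deviation of its log2(CPM + 0.1) from its own mean over the 16 libraries was taken. The median deviation of the 73 members ran from -0.76 in F121-9 replicate 2 to 1.00 in c.del replicate 2. Between 2 and 29 of the 73 members were above their own mean in the first-run libraries, and between 38 and 72 in the second-run libraries. In the first run these counts were 2 in F121-9 replicate 2 (47.5% of all genes were above their own mean), 2 in c.del replicate 1 (36.1%), 3 in 680kinv (47.3%), 3 in ab.del replicate 1 (41%), 4 in F121-9 replicate 1 (40.1%), 10 in bc.del (39.2%), and 24 and 29 in abc.del (44.4% and 45.2%). In the second run they were 38 in b.del (45%), 51 in 100kdel (64.7%), 52 in ac.del (54.6%), 53 in 245kdel (65%), 69 in a.del (59%), 69 in ab.del replicate 2 (59.7%), 71 in c.del replicate 2 (67.9%) and 72 in 4k.b.c (58.5%). No library of the first run reached the count of any library of the second. The standard deviation of a member across libraries had a median of 0.62 on the log2 scale, against 0.65 for short genes and 0.51 for all genes. It was 0.22 once the median member of each library was subtracted. That median comes from the members themselves, and no other gene set was treated in the same way. Short genes had median deviations of -0.37 to -0.00 in the first run and -0.02 to 0.54 in the second. Their deviation was smaller than that of the members in every library except 100kdel, 245kdel, ac.del and b.del.

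**Figure D2:**
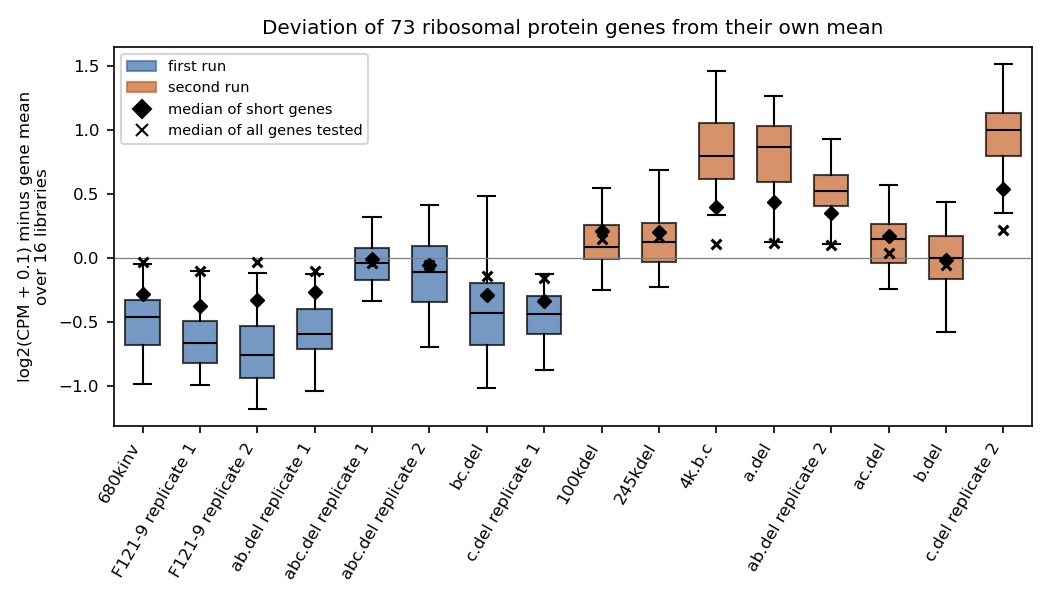
Deviation of the 73 tested members from their own mean, log2(CPM + 0.1), in each library. Boxes hold the central members from the lower to the upper quartile, black lines their median and whiskers the 5th to 95th percentile; diamonds are medians of short genes and crosses medians of all genes tested. The member medians run from -0.76 to 1.00, and crosses stay closer to 0 than the boxes in the libraries at either end.

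The deletion groups with 2 libraries were compared with F121-9 first, which asks whether loss of the lettered sites is accompanied by a change of these genes. No member passed an adjusted p of 0.05 in any of the 3 comparisons (limma on log2(CPM + 0.1), 2 against 2 libraries in a fit of 4 groups, Benjamini-Hochberg over 14094 genes). For abc.del this was 0 of 73 members beside 0.22% of all genes called, with 2 members (and 10.3% of all genes) at an unadjusted p under 0.05. For ab.del it was 0 beside 0.0497%, with 1 member (7.8% of all genes) at that unadjusted p, and for c.del 0 beside 0.0497%, with 22 members (9.44% of all genes). edgeR and DESeq2 on the reads recovered from the CPM also called 0 members in each, with 5 and 5 members at an unadjusted p under 0.05 for abc.del (10.5% and 11.7% of all genes), 6 and 11 for ab.del (8.19% and 9.65%) and 44 and 49 for c.del (9.58% and 11% of all genes). The members' log2 differences were mostly above 0 all the same: in 71 members for abc.del, 70 for ab.del and 70 for c.del, beside 53.7%, 57.3% and 57% of all genes. Their medians were 0.60, 0.65 and 1.00, against 0.04, 0.08 and 0.09 for all genes and 0.32, 0.41 and 0.45 for short genes. The comparisons share the F121-9 libraries, so these values are not independent of each other.

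The ab.del and c.del medians rested on their second-run library. Without ab.del replicate 2 the ab.del median was 0.12, and without ab.del replicate 1 it was 1.25. Without c.del replicate 2 the c.del median was 0.28, and without c.del replicate 1 it was 1.75. With the run as a covariate the medians were 0.05 and 0.34. The abc.del pair lies in the same run as F121-9, so its median stayed at 0.60 in that fit, where 11 members passed beside 4.76% of all genes, all 11 higher in abc.del. When F121-9 and abc.del were fitted alone, 5 passed beside 4.25% of all genes. Rpl13a, a large subunit protein also known for silencing translation in myeloid cells, had an adjusted p of 0.0218 and a log2 difference of 0.85 with the covariate. Rps12 (0.72, adjusted p = 0.0258), Rpl3 (0.83, 0.0262), Rpl10a (0.84, 0.0272) and Rps19 (0.84, 0.0377) passed in both of these fits.

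The members with the smallest p in these comparisons show the pattern gene by gene. Rpl28 read 4.50 and 3.72 CPM in F121-9, 8.50 and 8.62 in abc.del, 4.50 and 7.81 in ab.del, and 5.53 and 8.50 in c.del. Both abc.del libraries lay above both F121-9 libraries, and the difference was 1.05 ± 0.40 (SE, log2) with an adjusted p of 0.395. Rpl10l went the other way, with 1.55 and 1.61 CPM in F121-9 and 0.547 and 0.488 in abc.del, 0.341 and 0.720 in ab.del and 0.182 and 0.555 in c.del. All 6 of these edited libraries were lower than both F121-9 libraries, with differences of -1.45 ± 0.63, -1.48 ± 0.63 and -1.97 ± 0.63 and adjusted p of 0.475, 0.629 and 0.400 (limma). Rps9 read 11.9 and 11.1 CPM in F121-9 and 20.9 and 18.2 in abc.del. It read 15.5 and 29.4 CPM in ab.del and 18.0 and 38.5 in c.del, so that all 6 edited libraries were higher (0.89 ± 0.40, adjusted p = 0.637 for ab.del; 1.19 ± 0.40, adjusted p = 0.434 for c.del). Rpl6 (0.71 ± 0.33 in abc.del, adjusted p = 0.515), Rps25 (0.85 ± 0.38 in ab.del, 0.637) and Rpl41 (1.55 ± 0.53 in c.del, 0.440) completed the smallest p.

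Each copy was then taken alone. On the 129 copy 0 of 73 members passed in abc.del (background 0.25%), ab.del (0.215%) and c.del (0%), with 3, 1 and 18 members at an unadjusted p under 0.05 (11.3%, 9.07% and 7.62% of all genes). On the cast copy 0 passed in each (background 0% in all 3), with 0, 2 and 10 members at an unadjusted p under 0.05 (7.78%, 5.62% and 7.65% of all genes). The medians on the 129 copy were 0.64, 0.70 and 1.01, and on the cast copy 0.54, 0.65 and 1.02. On the 129 copy 13 members passed in abc.del with the run as a covariate, beside 4.83% of all genes, and 3 with the 2 groups alone, beside 4.85%.

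Additive terms for sites a, b and c over the 12 lettered libraries (F121-9 included) called 0 of 73 members for each site (limma; background 0.0142%, 0% and 0%), with 2, 0 and 1 members at an unadjusted p under 0.05 (8.84%, 5.09% and 3.26% of all genes). edgeR and DESeq2 called 0 members for each site as well. The members' median terms were 0.42 for loss of site a, -0.26 for site b and 0.11 for site c, and 0.19, -0.04 and 0.27 once the run was in the fit. The smallest p belonged to Rpl28 for site a (0.54 ± 0.25, adjusted p = 0.562), Rps15 for site b (0.41 ± 0.24, 0.973) and Rpl32l for site c (0.86 ± 0.37, adjusted p = 1.00).

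The 4 single libraries have no replicate and no test. Against the mean of F121-9 the members' median difference was 0.20 in 680kinv, 0.81 in 100kdel, 0.84 in 245kdel and 1.53 in 4k.b.c. For all genes the same medians were 0.04, 0.23, 0.24 and 0.17. With libraries centred on their median gene the members' median was 0.47 in 100kdel and 0.48 in 245kdel. More than 2-fold higher than F121-9 were 0, 25, 26 and 62 of the 73 members, beside 3.91%, 13.1%, 14.7% and 18% of all genes. The low value, 680kinv, is the one in the first run; edit and run cannot be told apart here. The same count in the lettered libraries of the first run was 6 and 5 in abc.del (5.71% and 5.72% of all genes), 0 in ab.del replicate 1 (4.1%), 0 in c.del replicate 1 (3.83%) and 2 in bc.del (5.95%). In those of the second run it was 18 in b.del (10.9%), 24 in ac.del (12.4%), 52 in ab.del replicate 2 (14.9%), 59 in a.del (17.5%) and 64 in c.del replicate 2 (20.1%).

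The run of sample numbers called more members than any comparison of edits or of copies. In a fit with terms for the 3 sites and the run over the 12 lettered libraries, 58 of 73 members passed (limma, adjusted p under 0.05), 57 higher and 1 lower in the second run, beside 24.6% of all genes (17.6% higher and 6.99% lower) and 31.1% of short genes. The median member difference was 0.95 on the log2 scale, against 0.15 for all genes and 0.51 for short genes. By subunit, 34 of 44 large subunit members were higher and 1 was lower, and 23 of 29 small subunit members were higher. The second-run range lay wholly above the first-run range in 29 of the 73 members (5.95% of all genes) and wholly below in 1 (1.38%). The count was 55 with edgeR (22.5% of all genes called) and 58 with DESeq2 (28.9%). Leaving out c.del replicate 2 gave 41 calls (19.3% of all genes). Leaving out a.del as well, a pair chosen after their high values were seen, gave 40 (19.8%) with a median of 0.63. With each library centred on its median short gene, 28 of 73 passed (38.4%, beside 37.8% of all genes), with a median of 0.37. Of the 28, 26 were higher in the second run (35.6% of members, beside 3.15% of all genes).

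Stalk proteins of the large subunit, which recruit the GTPases of translation, differed among themselves. Rplp1, at chr9:61913283-61914510, read 1.37 to 3.96 CPM (median 2.69) in the first run and 5.56 to 15.2 CPM (median 9.90) in the second. The 2 ranges did not overlap, and its difference of 1.98 ± 0.31 (adjusted p = 0.00109) was the largest of the 73. Rplp0, which anchors the stalk, read 5.61 to 11.3 CPM (median 8.86) and 10.4 to 23.1 CPM (median 15.03). These ranges overlapped slightly, and the difference of 0.88 ± 0.24 (adjusted p = 0.0176) lost its call in 8 of 25 other settings. These were no filter, centring on the median gene or on short genes, quantile normalisation, and leaving out F121-9 replicate 2, ab.del replicate 2, c.del replicate 2, or a.del with c.del replicate 2 (adjusted p up to 0.274). Rplp2, the partner of Rplp1 in the stalk, at chr7:141447651-141451359, read 44.4 to 64.9 CPM (median 54.8) in the first run and 36.9 to 67.6 CPM (median 50.6) in the second. Its runs overlapped throughout, with a difference of -0.19 ± 0.13 (adjusted p = 0.310). After centring on the median gene it was -0.46 (limma, adjusted p = 0.0269), after centring on short genes -0.77 (0.00113), and with DESeq2 -0.36 (0.0373). It did not pass with edgeR (-0.35, adjusted p = 0.0613) or quantile normalisation (limma, -0.24, 0.182). Without b.del the difference was -0.0075 (limma, adjusted p = 0.977). Rplp2 holds the snoRNA gene Snora52 in its span.

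In the 5S particle, whose free form binds Mdm2, Rpl5 read 41.5 to 53.6 CPM (median 44.9) in the first run and 65.3 to 100.4 CPM (median 75.3) in the second, with no overlap. Rpl11 read 7.18 to 13.4 CPM (median 9.18) and 13.1 to 32.7 CPM (median 19.8), and its ranges overlapped by the highest first-run and the lowest second-run library. The differences were 0.83 ± 0.14 (adjusted p = 0.00154) for Rpl5 and 1.14 ± 0.23 (adjusted p = 0.00365) for Rpl11. Rpl3, near the peptidyl transferase centre, rose by 0.95 ± 0.21 and Rpl22, whose span of 9647 bases is among the longer ones, by 0.75 ± 0.14. Rpl5, Rpl3 and Rpl22 did not pass after centring on short genes, nor did Rpl3 without a filter.

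Small subunit members held 5 of the 6 largest differences. Rps28 read 4.32 to 10.3 CPM (median 5.41) in the first run and 12.5 to 27.6 CPM (median 18.6) in the second, a difference of 1.64 ± 0.24 (adjusted p = 0.000878). Rps6, the substrate of the S6 kinases, read 8.63 to 15.8 CPM (median 11.9) and 24.9 to 48.8 CPM (median 30.5), a difference of 1.59 ± 0.21 (adjusted p = 0.000494). Rps19, needed for maturation of the small subunit RNA and mutated in Diamond-Blackfan anaemia, read 29.5 to 67.9 CPM (median 39.8) and 84.7 to 167.0 CPM (median 114). In all of these the runs were apart. Rps29 (1.59 ± 0.35) and Rps18 (1.54 ± 0.16), like Rps19 (1.52 ± 0.18), were also apart. Rps27a, which is made fused to ubiquitin, rose by 1.26 ± 0.21.

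Rpl32l was the 1 member that passed in the opposite direction. It read 5.97 to 15.7 CPM (median 8.15) in the first run and 2.21 to 5.75 CPM (median 4.98) in the second, a difference of -1.18 ± 0.22 (adjusted p = 0.00261), and the second-run range lay wholly below the first. Its 592 bases, at chr10:20208439-20209030, lie inside Map7 on the same strand. Map7, whose span is 132671 bases, had a run difference of 0.10 ± 0.19 (adjusted p = 0.741), a value well above that of Rpl32l; the difference between them was not tested. Rpl10l (-0.59 ± 0.53) and Rps27l (0.20 ± 0.23) stood with Rplp2 at the low end without passing. The direction of Rpl10l was not stable. Its difference was 0.17 without b.del and 0.11 with the run as the only term over all 16 libraries.

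**Figure D3:**
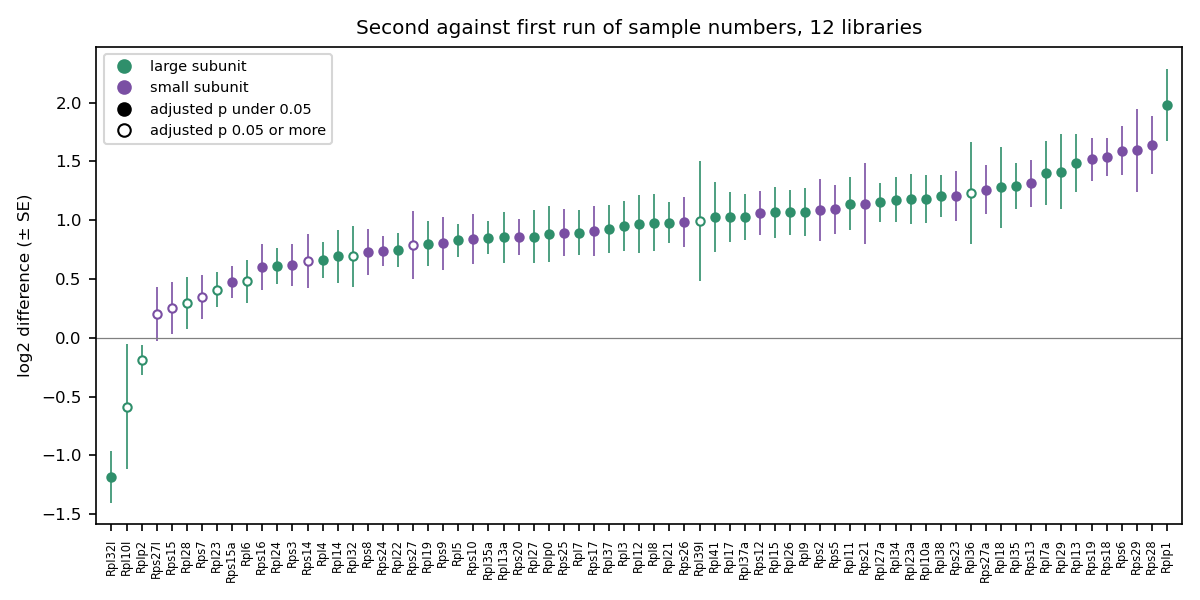
Difference between second-run and first-run libraries for 71 of the 73 tested members, in log2 units with the standard error, from the fit over 12 libraries. Filled points passed an adjusted p of 0.05; green is large and purple small subunit. Of these, 57 filled points lie above 0, and Rpl32l at -1.18 is the filled point below it.

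Within a group the same contrast appears without any site difference. In ab.del, 71 of 73 members were higher in replicate 2 than in replicate 1, with a median of 1.12 (60.8% of all genes were higher). In c.del, 72 of 73 were higher, with a median of 1.42 (69% of all genes). In pairs from the same run the members did not lean that way: 19 of 73 were higher in F121-9 replicate 2 (54.5% of all genes) and 30 of 73 in abc.del replicate 2 (49.8%). Rplp1 read 1.61 and 11.2 CPM in the ab.del pair and 2.95 and 15.2 CPM in the c.del pair. Each pair is 1 library against 1 and has no test. The libraries of the ab.del and c.del pairs also differ in name ending, so a difference between clones cannot be told from one between runs.

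Gene length moved with the run difference across the whole table. The median difference between the run means fell from 0.58 for genes up to 5 kb to 0.51 up to 12 kb, 0.28 up to 25 kb and 0.12 up to 50 kb, and it was -0.08 for genes over 200 kb; the same median over the members was 0.89. Among the members the median fitted difference was 1.01 in the 22 narrowest, 1.03 in the 32 of middle span and 0.83 in the 19 widest. Members with a same-strand overlap had a median of 0.89 and those without 0.98. The part of length, or of a difference in library making, in the members' result was not tested. By start motif, the median run difference was 1.34 in the 6 tested members with CTCGCGAGA against 0.86 in the 48 without, 0.99 in the 36 with CGGAAG against 0.85 in the 18 without, and 0.84 in the 17 with a pyrimidine run at the start against 0.92 in the 37 without.

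Other genes of the ribosome and of translation were counted in the same comparison, in which 17.6% of all genes were higher in the second run and 6.99% lower. Of 10 tested ribosomal protein genes outside the naming rule, 4 were higher and 0 lower: Rpsa (1.14 ± 0.21), Rps4x (0.74 ± 0.17), Rpl22l1 (1.63 ± 0.32) and Rpl36al (1.49 ± 0.37). Of 14 translation factors and partners, which include genes with start tracts like those of the members, 10 were higher, among them Tpt1 (1.58 ± 0.21), Eef1a1 (1.23 ± 0.25) and Eef2 (1.07 ± 0.21). For RNA polymerase I, which makes the ribosomal RNA precursor, 7 of 15 were higher, with Taf1c (1.89 ± 0.38) and Ubtf (1.36 ± 0.17) largest. Of 31 ribosome assembly genes 17 were higher, including Rrs1 (1.68 ± 0.26), Ncl (1.45 ± 0.14), Nop56 (1.32 ± 0.17) and Gnl3 (1.13 ± 0.15). Mitochondrial ribosomal protein genes, 73 of them tested, had 30 higher and 1 lower (Mrpl42, -0.64 ± 0.11). The medians of these 5 lists were 0.81, 0.70, 0.27, 0.49 and 0.45.

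Of 10 growth regulators 4 were higher in the second run and 1 was lower. Myc (2.20 ± 0.63, 0.0657 to 1.74 CPM in the first run and 1.17 to 9.59 in the second), Mycn (1.46 ± 0.20), Trp53 (0.98 ± 0.11) and Cdkn1a (0.68 ± 0.21) were higher, and Eif4ebp1 was lower (-0.31 ± 0.10, adjusted p = 0.0459). Larp1 (0.48 ± 0.20), Max (0.19 ± 0.11), Rptor (-0.07 ± 0.11), Mtor (-0.09 ± 0.13) and Mdm2 (-0.37 ± 0.23) did not pass. Among stem cell markers 4 of 6 were higher, Klf4 (1.25 ± 0.27), Sox2 (1.07 ± 0.17), Pou5f1 (0.99 ± 0.27) and Nanog (0.53 ± 0.16), while Esrrb (-0.02 ± 0.12) and Zfp42 (-0.00 ± 0.14) did not pass. The low mesoderm and neural markers T (2.47 ± 0.45) and Pax6 (1.98 ± 0.59) were higher as well. The summed mesoderm list stood at 0.330 to 0.990 CPM in the first run and 1.23 to 2.96 in the second, the neural pair at 0.564 to 3.74 and 0.964 to 11.1, primitive endoderm at 0.570 to 1.72 and 0.791 to 2.71, and fibroblast feeders at 0.307 to 1.76 and 0 to 1.49. The part of these shifts in the members' result was not tested.

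The 2 copies of each gene were next compared within library. Over the 16 libraries 40 of 73 members passed (limma on log2 129 minus log2 cast), 29 higher on the 129 copy and 11 on the cast copy, beside 46.8% of 13583 autosomal genes (24.7% and 22.1%). The size of the difference had a median of 0.24 in members and 0.32 in all genes. A difference over 0.5 was seen in 22 members, 17 of which passed, beside 36.7% of all genes. The libraries share parents, so the test treats the clones as replicates of 1 hybrid genotype.

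On the 129 side Rpl32l stood first. It read 4.10 to 30.8 CPM (median 11.1) on the 129 copy and 0.0522 to 1.09 CPM (median 0.266) on the cast copy, with 3927 and 99 reads over all libraries. The copies were apart in every library, at 4.88 ± 0.32 (log2, adjusted p = 1.93e-09). Map7, the gene around it, differed by 1.39 ± 0.08 in the same direction. Per kilobase Rpl32l averaged 22.4 CPM on the 129 copy and 0.638 on the cast copy, where Map7 averaged 0.523 and 0.203 CPM. The excess of Rpl32l over Map7 per length was thus large on the 129 copy and small on the cast copy.

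Rps15, a small subunit protein at chr10:80292431-80294114, read 18.7 to 58.1 CPM (median 32.3) on the 129 copy and 2.97 to 12.3 CPM (median 5.85) on the cast copy. All 16 libraries had more 129 reads, with a difference of 2.36 ± 0.20 (adjusted p = 3.71e-08), while its upstream neighbour on the same strand, Dazap1, differed by -0.05 ± 0.05. Rpl14 (0.99 ± 0.19) and Rps20 (0.90 ± 0.09) were also 129-high in 16 of 16 libraries. Rpl10l (1.34 ± 0.49, adjusted p = 0.0344) rested on 504 reads and lost its call under 12 of 22 alternative settings. Without 4k.b.c and a.del, whose chromosome 12 reads were nearly all cast, it was 2.03 (adjusted p = 4.17e-07). On the cast side the largest among members that passed were Rpl38 (-0.84 ± 0.14), a protein known for patterning of the axial skeleton, Rpl15 (-0.59 ± 0.16), Rps25 (-0.49 ± 0.10), Rps13 (-0.47 ± 0.10) and Rpl17 (-0.42 ± 0.05). Rps7 (-1.73 ± 0.76, adjusted p = 0.0711) and Rps29 (-0.74 ± 0.58, adjusted p = 0.306) were further to the cast side but did not pass over 16 libraries. Rpl38, Rps25 and Rps7 were cast-high in 16 of 16 libraries. The reads behind the smallest cast value, 99 for Rpl32l, set its precision, and the counting of reads without a strain difference is not given in the sources used here.

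**Figure D4:**
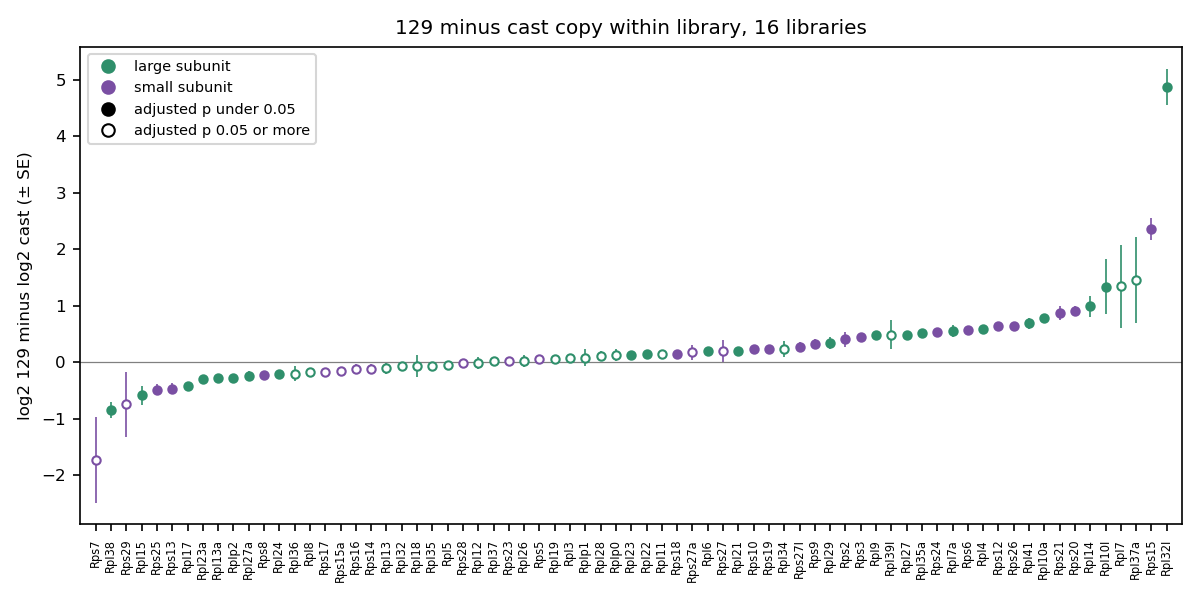
Log2 level of the 129 copy minus that of the cast copy for 71 of the 73 tested members, with the standard error over 16 libraries. Filled points passed an adjusted p of 0.05. Most points lie near 0; Rpl32l at 4.88 and Rps15 at 2.36 stand apart, and Rps7, Rps29, Rpl7 and Rpl37a, which have wide bars, lie on chromosomes whose reads came almost wholly from 1 parent in 2 libraries.

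In 4k.b.c and a.del, 5 members lay on chromosomes whose reads came almost wholly from 1 parent. In both libraries the 129 copy held 99.7% of the CPM of other genes on chromosome 1. On chromosome 12 it held 0.440% in 4k.b.c and 0.404% in a.del. On chromosome 1, Rpl7 had 870 and 1661 reads from the 129 copy and 1 and 0 from the cast copy, and Rpl37a had 912 and 1920 against 0 and 1. On chromosome 12, Rps7 had 1 and 2 reads from the 129 copy and 1550 and 3621 from the cast copy. Rps29 had 0 and 0 against 83 and 142 and Rpl10l 0 and 1 against 21 and 16. Rps7 on the cast copy read 150 and 194 CPM there and 51.6 to 95.4 CPM in the other 14 libraries. The mean of both copies of Rps7 was 42.6 to 62.5 CPM in the first run and 48.4 to 97.0 in the second, with 75.1 CPM in 4k.b.c and 97.0 in a.del, within the range of the other libraries or above it. In the limma fit without 4k.b.c and a.del, Rps7 (-0.58, adjusted p = 1.40e-05), Rpl37a (0.31, 0.00274) and Rpl7 (0.23, 0.00379) passed as well. Rpl6 (adjusted p = 0.0531) no longer did.

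Partial shifts touched further members. Shares here are of CPM, with both copies summed. On chromosome 3, which holds Rpl34 and Rps27, the 129 copy held 29.8% of the members' CPM in c.del replicate 1 and 37.1% in ac.del. Other genes of that chromosome gave 32.0% and 34.4%, and the median over libraries was 56.6% for the members. On chromosome 7 the 14 members gave 35.7% in 4k.b.c, equal to the other genes there (35.7%), against a median of 51.0%. On chromosome 8 the members gave 34.0% in 4k.b.c and 36.4% in a.del, where other genes gave 34.7% and 33.1%. In each of these cases the members' share lay within a few percentage points of that of their chromosome. It did not on chromosome 3 in b.del, where the members gave 70.8% (330 reads on 129 and 119 on cast) and other genes 49.3%. Such gaps were not limited to b.del. On chromosome 10 the members gave 62.7% to 77.1% over the 16 libraries and other genes 48.4% to 51.6%. On chromosome 9 in bc.del the shares were 72.7% and 44.9%.

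The runs were then set side by side on each copy, as a description. The second-run range lay above the first on the 129 copy in 18 members (4.09% of all genes) and on the cast copy in 25 (4.38%). Rplp1 was apart on both copies. It read 0.613 to 3.97 against 5.28 to 17.6 CPM on the 129 copy, and 1.92 to 4.02 against 5.84 to 12.8 CPM on the cast copy. Rpl38 read 6.07 to 14.5 CPM (median 9.74) in the first run and 23.7 to 53.6 CPM (median 31.8) in the second on the 129 copy, with no overlap. On the cast copy it read 21.96 to 30.8 CPM (median 24.3) and 30.2 to 64.6 CPM (median 38.4). Rps15 had no overlap on the cast copy, at 2.97 to 4.95 CPM (median 3.74) and 6.75 to 12.3 CPM (median 9.86), while the 129 copy read 18.7 to 58.1 CPM (median 31.6) and 20.5 to 38.6 CPM (median 33.2). Rpl14 was like Rps15, at 13.0 to 22.5 against 28.2 to 66.6 CPM on the cast copy and 33.8 to 92.5 against 38.5 to 79.9 CPM on the 129 copy.

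Whether the copies differed between runs was tested. That test, chosen after these values were seen, took 129 minus cast between runs over 11 lettered libraries without a.del. It called 0 of 73 members (limma; 0% of 13583 genes), with 15 members (8.86% of all genes) at an unadjusted p under 0.05; no other tool was run. Rpl38 had a difference of 1.07 ± 0.15 (adjusted p = 0.2504), Rps15 of -1.41 ± 0.26 (adjusted p = 0.353) and Rps16 of -0.46 ± 0.10 (adjusted p = 0.372), and Rpl14 of -1.16 ± 0.31 (adjusted p = 0.418). With the run as the only term over 14 libraries, all but 4k.b.c and a.del, Rpl38 (adjusted p = 0.0190) and Rps15 (adjusted p = 0.0226) passed, beside 0.0663% of all genes.

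**Figure D5:**
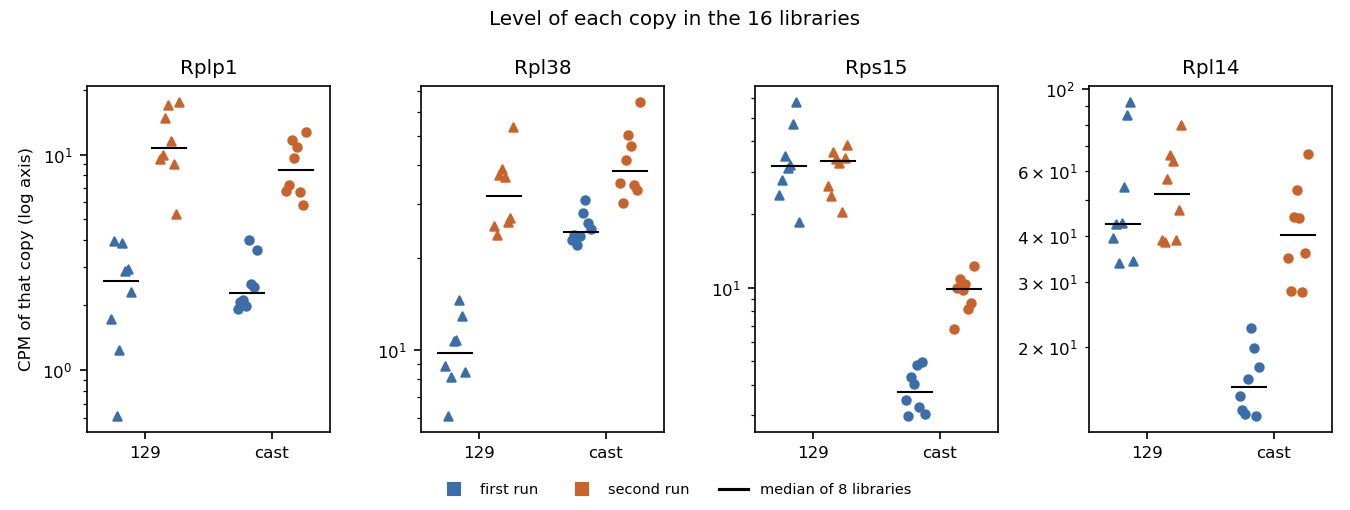
Level of each copy of Rplp1, Rpl38, Rps15 and Rpl14 in the 16 libraries, in CPM on a log axis. Triangles are the 129 and circles the cast copy, blue first-run and orange second-run libraries, and lines the median of 8 libraries. In Rplp1 both copies are apart between runs, in Rpl38 the 129 copy, and in Rps15 and Rpl14 the cast copy.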

How the data were processed

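Bru-seq libraries were strand-specific and single-end, with Bowtie2, bedtools and mm10 named in the submitters' processing notes and versions not given in the sources used here. Although the deposited table is named for RPKM, each of its 32 columns held CPM: every deposited column sums to 1000000, and 100% of values were whole reads within 0.01 once divided by the value of 1 read. The unit was settled from the values, and these recovered reads served edgeR and DESeq2.

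The widest line per symbol was kept. Levels were the mean of the 129 and cast CPM, taken as log2(CPM + 0.1), for genes with a mean of at least 0.2 CPM. limma 3.58.1 (trended, two-sided, Benjamini-Hochberg over all genes tested, adjusted p of 0.05) was run in R 4.3.3, with edgeR 4.0.16 and DESeq2 1.42.0 as alternatives, and was tested on simulated data. Fold changes of low genes are understated by the 0.1 added. Other alternatives were the value added, the filter, centring, quantile normalisation, a term for the run and dropping libraries 1 at a time.

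Named genes were the stalk and 5S members, Rps6, Rps19, Rps27a, Rpl3, Rpl22, the paralogues, the 5 highest and 5 lowest per kilobase, the called members (3 with the smallest p where none, 5 per direction where over 10), members on one-parent chromosomes and up to 4 genes of each other list. Rpl13, Map7 and Dazap1, and Rpl14 between the runs, were chosen after values were seen. Values of 2 tested members are not reported here by name, and both stay in the counts and medians. The members and lists were chosen with earlier results of these data known.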

Additional observations from a re-analysis of the deposited data

How the results depend on the processing

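Libraries could not be paired between groups because replicate numbers stand only in the F121-9 labels. The 129 and cast copies were compared within library. Of 307 counts of called members recomputed under other settings, 300 stayed within the limits set and 7 moved. Medians of the single libraries, given below, are not among the 307. Values were recomputed for called members, or those with the smallest p where none was called, and for fixed named members that passed between the runs. Of these 1325 values, 1297 kept their side of the threshold, 24 lost a call and 4 gained one. Rplp2 and Rpl10l between the runs are not among them. Neither are Rpl13a, Rps12, Rpl3, Rpl10a and Rps19 in abc.del, which gained calls as given above. Of these values 0 changed direction while called. For abc.del against F121-9, 5 members passed with only these 2 groups and 11 with the run as a covariate, in place of 0; on the 129 copy these counts were 3 and 13. On the 129 copy, leaving out 1 library gave 0 to 3 calls for c.del, the 3 coming without c.del replicate 1. Between the runs, 28 members passed after centring on short genes, a setting chosen after seeing the data. Without c.del replicate 2 the count was 41 and without ac.del 65, in place of 58, and it was 39 without a filter. The share of all genes called was not set beside the 65 and the 39, so they show only how the count varied. For 129 minus cast between runs, 2 passed with the run as the only term over 14 libraries. Median centring gave medians of 0.47 for 100kdel, 0.48 for 245kdel and 1.27 for 4k.b.c, and adding 1 CPM gave 1.42 for 4k.b.c. The cause of these changes was not tested. Depth limits Rpl10l, Rpl39l and Rps29, which have few reads.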
